A study of Rattus norvegicus with 9 samples.

Results

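The CCT chaperonin, also called TRiC, is the folding machine of the eukaryotic cytosol, and its 8 subunit genes (Tcp1, Cct2, Cct3, Cct4, Cct5, Cct6a, Cct7 and Cct8) were followed in RNA-seq libraries of rat vascular smooth muscle cells. The genes were taken by symbol from the deposited table, which held all 8 among 32623 genes, each in 1 row. The 9 libraries came from rat primary aortic smooth muscle cells of WT genotype, with 3 libraries in each of 3 groups. PDGF-BB+PTUPB cells were given PTUPB at 0.5 µM for 2 h and then platelet-derived growth factor BB (PDGF-BB), a smooth muscle mitogen, for 24 h. PDGF-BB cells received the growth factor for 24 h, and Control cells an equal volume of DMSO. PTUPB inhibits both cyclooxygenase-2 and soluble epoxide hydrolase, enzymes of arachidonic acid metabolism. The PDGF-BB dose is 10 ng/mL in the sample labels and 20 ng/mL in the series design. Per the labels, cells of all 3 groups were at passage 4 to 8, were kept 12 h without serum and were treated in 2% serum. Nothing in the labels ties the 3 libraries of a group to different animals or dishes. The p-values therefore rest on library-to-library variation alone, and that variation may be technical.

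CCT consists of a pair of stacked rings, and each ring holds 1 copy of every subunit in a fixed order around a central folding chamber. Nascent actin and tubulin depend on it, as do many proteins with WD40 repeats, including the mitotic activator Cdc20. Every subunit has a site for ATP. In yeast the orthologues of Tcp1, Cct2, Cct4 and Cct5 form a side of higher ATP affinity. Those of Cct3, Cct6a, Cct7 and Cct8 form a side of lower affinity. In smooth muscle cells, folded actin is needed for contraction and folded tubulin for the mitotic spindle.

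The libraries held 12729187 to 16911050 counts, and the 8 subunits had 1722 to 6412 counts each per library. Of 8 smooth muscle markers 7 passed the filter on low values and none was at 0, and the list summed to 2516 to 2800 FPKM in PDGF-BB+PTUPB, 2363 to 2767 FPKM in PDGF-BB and 1971 to 2730 FPKM in Control. FPKM here is the count divided by exonic length and by library size, with library sizes scaled by the TMM method, and levels of genes are compared on this scale throughout. Tagln made up the largest part of the smooth muscle sum, averaging 1606, 1619 and 1333 FPKM in the same order of groups. Myh11 averaged 4.35, 2.98 and 6.14 FPKM, and Des at most 0.117 FPKM. Myh11, Acta2 and Lmod1 were lower in PDGF-BB than in Control (edgeR adjusted p = 3.26e-04, 0.00898 and 0.0397), against 15.8% of all genes tested. Tagln, Cnn1, Myl9 and Smtn did not pass in that comparison. Of 6 endothelial markers in the table Cdh5, Tie1, Kdr and Emcn were at 0 in every library, and the list summed to 0.0681 to 0.337 FPKM over all libraries. Of 6 macrophage markers Ptprc and C1qa were at 0, and the list summed to 21.5 to 22.3 FPKM in PDGF-BB+PTUPB, 16.3 to 18.1 in PDGF-BB and 16.0 to 24.3 in Control. Nearly all of this sum was Cd14 (means of 18.6, 13.4 and 17.2 FPKM in the same order) and Cd68 (3.18, 3.52 and 3.23 FPKM). Group means of Csf1r were at most 0.180 FPKM and those of Adgre1 at most 0.0287 FPKM. Of 4 Schwann cell markers Sox10 was at 0, and the list summed to at most 0.766 FPKM. The 6 adventitial fibroblast markers, some of which cultured smooth muscle cells also express, summed to 886 to 1112 FPKM in PDGF-BB+PTUPB, 577 to 701 in PDGF-BB and 1022 to 1468 in Control; their part in the results below was not tested. PDGF-BB replicate 3 and Control replicate 2 stood apart from the other libraries of their groups, and longer genes read lower in them (Spearman correlation of deviation with exonic length, across genes, of -0.381 and -0.389). The exonic lengths of the subunits ran from 1744 to 3622 bases, with a median of 2298 against 2336 for all genes tested.

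The subunit transcripts were not equally abundant. Cct5 was the highest in every group, at a mean of 204 FPKM in PDGF-BB+PTUPB, 244 FPKM in PDGF-BB and 189 FPKM in Control. Cct6a was the lowest in every group, at 43.8 FPKM in PDGF-BB+PTUPB, 61.5 FPKM in PDGF-BB and 41.5 FPKM in Control. In Control the order was Cct5, Cct4, Cct2, Cct8, Cct7, Tcp1, Cct3 and Cct6a, and the highest mean was 4.55 times the lowest. The ranges of Cct4 and Cct2, of Cct8 and Cct7, and of Tcp1 and Cct3 overlapped in Control, so the order within these pairs was not resolved. In PDGF-BB the same 3 pairs overlapped, and Tcp1 reached into the range of Cct7 as well (93.0 to 118 FPKM for Tcp1 and 116 to 145 FPKM for Cct7). In PDGF-BB+PTUPB Cct2 and Cct4 overlapped and no other pair did. The 8 subunits together summed to 870, 874 and 885 FPKM in PDGF-BB+PTUPB replicates 1 to 3, 1063, 1021 and 1223 FPKM in PDGF-BB and 779.9, 820 and 779 FPKM in Control. The sum in PDGF-BB libraries lay above both other groups in all 3 replicates. In bulk RNA, a change in the number of cells that express a gene and a change in RNA per cell cannot be told apart.

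The stretches of promoter just before the gene start are shown for the pair of subunits with the largest rise under PDGF-BB (Tcp1 and Cct6a) and the pair that did not pass the test for a fall under PTUPB (Cct2 and Cct5). Both pairs were picked from the test results given below. A difference in response between subunits was not tested, and neither was a link between promoter sequence and response. These stretches are printed as a description. They are the last 120 bases before the RefSeq gene start in build GRCr8, 5′ to 3′ on the minus strand, where all 4 genes lie. The positions are chr1:50384528-50384647 for Tcp1, chr12:32519073-32519192 for Cct6a, chr7:54591406-54591525 for Cct2 and chr2:84313774-84313893 for Cct5. Capitals mark a GC box (GGGCGG, or CCGCCC on the other strand) or a CCAAT box (CCAAT, or ATTGG on the other strand).
Tcp1: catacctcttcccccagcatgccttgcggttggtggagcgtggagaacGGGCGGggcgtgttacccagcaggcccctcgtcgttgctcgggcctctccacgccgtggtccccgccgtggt
Cct6a: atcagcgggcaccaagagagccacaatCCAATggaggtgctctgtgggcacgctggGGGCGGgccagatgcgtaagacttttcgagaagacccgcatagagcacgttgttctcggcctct
Cct2: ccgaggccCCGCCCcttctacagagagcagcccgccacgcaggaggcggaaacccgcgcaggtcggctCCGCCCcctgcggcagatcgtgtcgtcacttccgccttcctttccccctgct
Cct5: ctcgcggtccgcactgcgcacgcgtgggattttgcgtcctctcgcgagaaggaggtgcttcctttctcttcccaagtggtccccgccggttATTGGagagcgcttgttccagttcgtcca

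All 8 subunits had a promoter window in the RefSeq table, running from 250 bases before to 50 bases after the gene start. On either strand, a GC box was found in 6 of the 8 windows (Tcp1, Cct2, Cct3, Cct6a, Cct7 and Cct8), against 33.1% of 33469 windows of the same length. The GC content of the 8 subunit windows was 52.3% to 66%, above the median of 51.7% over all windows, so the share over all windows is not one of windows of like base composition. A CCAAT box was found in 5 (Cct3, Cct5, Cct6a, Cct7 and Cct8), against 37.5%. The palindromic core of a heat shock element (GAANNTTC) was found in 1, Cct4, against 8.59%, and the E-box CACGTG in none, against 6.42%. The cyclic AMP response element TGACGTCA was found in Cct4 alone (1.83% of all windows), and the ETS core CCGGAAGT in Tcp1 alone (3.81%). None of these motifs contains another. A match describes the letters only and is not evidence of a bound factor.

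PDGF-BB was compared with Control to describe the growth factor response of the subunits. All 8 subunits rose, by 1.29-fold (Cct5) to 1.61-fold (Tcp1), with no overlap between the 3 PDGF-BB and the 3 Control libraries for any of them. Of all 11197 genes tested, 33.2% were called, 17.3% higher and 15.8% lower (adjusted p under 0.05 by the Benjamini-Hochberg method in edgeR), and 44.6% had ranges that did not overlap in either direction. The median log2 change was 0.49 over the subunits and -0.02 over all genes tested. Over all genes 1942 were called higher and 1772 lower, and scaling by library totals alone gave 2410 and 1350; the 8 subunits were called higher under both.

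**Figure D1:**
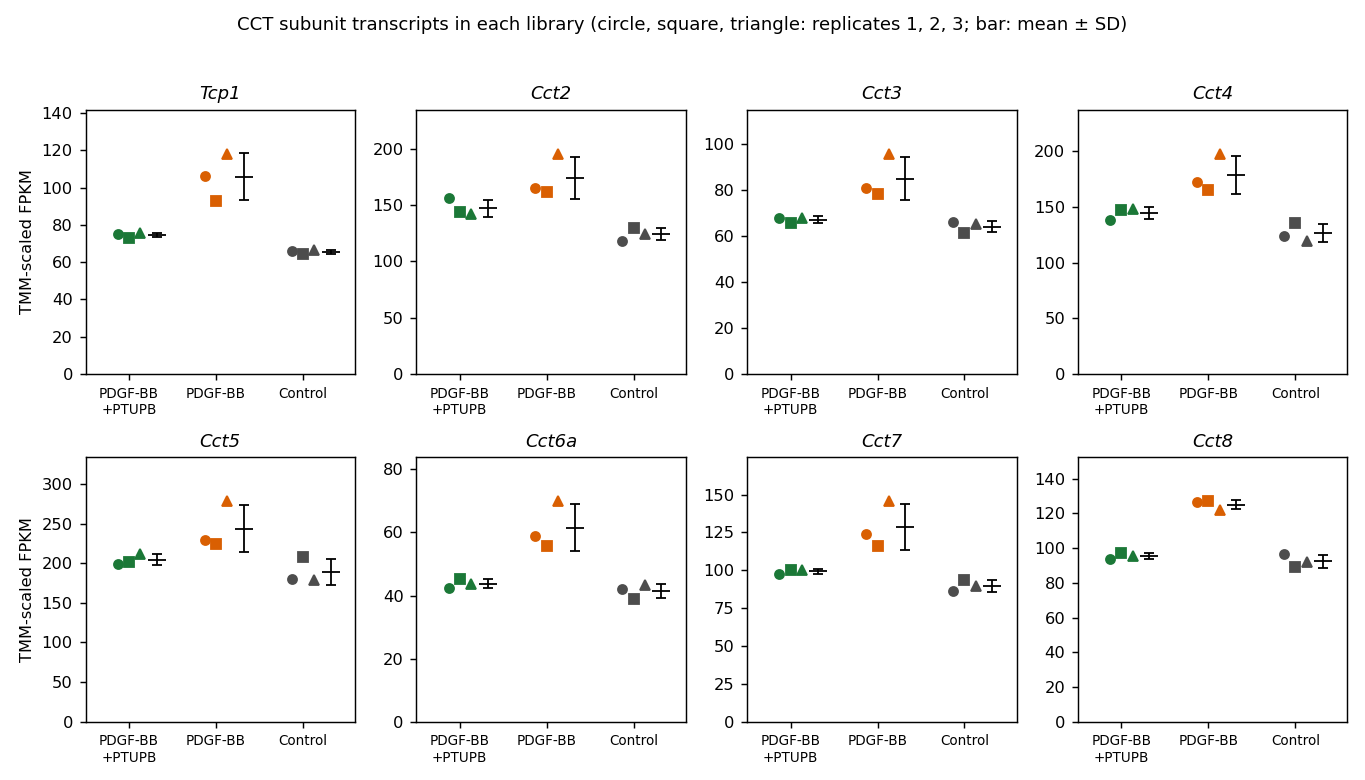
Level of each CCT subunit transcript (vertical axis, TMM-scaled FPKM from 0) in the PDGF-BB+PTUPB, PDGF-BB and Control libraries; symbols are replicates and the bar is the mean ± SD of 3 libraries. The PDGF-BB libraries lie above both other groups for all 8 genes, and replicate 3 (triangle) is the highest PDGF-BB library for 7 of them.

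On the side of higher ATP affinity, Tcp1, which encodes the alpha subunit, had the largest change. It read 75.1, 73.1 and 75.5 FPKM in PDGF-BB+PTUPB replicates 1 to 3, 106, 93.0 and 118 FPKM in PDGF-BB and 66.0, 64.2 and 66.4 FPKM in Control. All PDGF-BB libraries were above all others, and the PDGF-BB+PTUPB libraries lay narrowly above Control without overlap. The log2 change for PDGF-BB against Control was 0.69 ± 0.09 (SE; edgeR adjusted p = 2.57e-04).

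Cct2, the beta subunit, read 156, 144 and 142 FPKM in PDGF-BB+PTUPB, 166, 161 and 196 FPKM in PDGF-BB and 119, 129 and 125 FPKM in Control. The groups formed 3 separate ranges, with PDGF-BB+PTUPB between the others. The log2 change for PDGF-BB against Control was 0.49 ± 0.09 (edgeR adjusted p = 0.00212). Cct4, the delta subunit, whose mutation causes a sensory neuropathy in the mutilated foot rat, read 139, 147 and 148 FPKM in PDGF-BB+PTUPB, 173, 166 and 198 FPKM in PDGF-BB and 124, 136 and 119.95 FPKM in Control. Its groups were also 3 separate ranges, and its log2 change was 0.50 ± 0.09 (edgeR adjusted p = 0.00169).

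Cct5, the epsilon subunit, read 199, 202 and 212 FPKM in PDGF-BB+PTUPB, 229, 224 and 278 FPKM in PDGF-BB and 181, 207 and 179 FPKM in Control. Control replicate 2 reached into the PDGF-BB+PTUPB range, and Cct5 had the smallest rise of the 8, 0.37 ± 0.10 on the log2 scale (edgeR adjusted p = 0.0161). This was the only subunit whose call for PDGF-BB was lost under any of the 21 alternatives run: adjusted p was 0.0559 without Control replicate 1 and 0.0651 without Control replicate 3, in a range of 0.00173 to 0.0651.

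On the side of lower ATP affinity, the rises were similar in size. Cct6a, the zeta subunit, read 42.5, 45.2 and 43.5 FPKM in PDGF-BB+PTUPB, 59.0, 55.7 and 69.8 FPKM in PDGF-BB and 42.1, 39.0 and 43.4 FPKM in Control. Its PDGF-BB libraries stood clear of the other groups, which overlapped each other. The log2 change for PDGF-BB against Control was 0.57 ± 0.09 (edgeR adjusted p = 0.00117), the largest on this side.

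Cct7, the eta subunit, read 97.5, 100.3 and 100.4 FPKM in PDGF-BB+PTUPB, 124, 116 and 145 FPKM in PDGF-BB and 86.2, 93.6 and 89.3 FPKM in Control. Its 3 groups did not overlap, and the log2 change for PDGF-BB was 0.52 ± 0.09 (edgeR adjusted p = 0.00153). Cct3, the gamma subunit, read 67.7, 65.5 and 67.9 FPKM in PDGF-BB+PTUPB, 80.8, 78.1 and 95.6 FPKM in PDGF-BB and 66.0, 61.1 and 64.9 FPKM in Control. PDGF-BB was again the separate group, while the other groups overlapped, and the log2 change was 0.41 ± 0.08 (edgeR adjusted p = 0.00464).

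Cct8, the theta subunit, read 93.7, 97.0 and 95.3 FPKM in PDGF-BB+PTUPB, 127, 127 and 122 FPKM in PDGF-BB and 96.4, 88.9 and 92.2 FPKM in Control. It was the only subunit for which PDGF-BB replicate 3 was the lowest rather than the highest PDGF-BB library, and its PDGF-BB libraries were close together. The log2 change for PDGF-BB was 0.44 ± 0.06 (edgeR adjusted p = 6.29e-04). The deposited counts of Cct8 and Tcp1 are not whole numbers in 5 and 8 of the 9 libraries, and how such counts arose is not given in the sources used here, so reads of these genes may be divided with other features.

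PDGF-BB+PTUPB was compared with PDGF-BB to see what the inhibitor changed in growth factor-treated cells. All 8 subunits read lower with PTUPB in every library, and 6 fell at the test's threshold: Tcp1, Cct6a, Cct8, Cct7, Cct3 and Cct4. Of all genes tested, 18.3% were called, 10% lower and 8.28% higher, and 40.7% had ranges that did not overlap. The median log2 change was -0.35 over the subunits and 0.01 over all genes. Over all genes 927 were called higher and 1121 lower, against 759 and 1414 when scaled by library totals alone, which called 7 subunits.

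The falls ran from -0.51 ± 0.09 for Tcp1 (SE; edgeR adjusted p = 0.00422) and -0.49 ± 0.09 for Cct6a (edgeR adjusted p = 0.00594) to -0.30 ± 0.09 for Cct4 (edgeR adjusted p = 0.0334) on the log2 scale. Cct8 changed by -0.39 ± 0.06 (edgeR adjusted p = 0.00322), Cct7 by -0.37 ± 0.09 (0.0169) and Cct3 by -0.34 ± 0.08 (0.0206). Cct2 and Cct5 did not pass: the log2 change was -0.24 for Cct2 (95% interval -0.44 to -0.05, edgeR adjusted p = 0.0837) and -0.25 for Cct5 (95% interval -0.47 to -0.04, edgeR adjusted p = 0.101). These intervals overlap those of the 6 called subunits, and a difference in response between subunits was not tested by this fit.

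Tcp1, Cct6a and Cct8 were called lower in each of the 21 alternatives. The other 3 calls were less stable. Without PDGF-BB+PTUPB replicate 1 or replicate 2 3 subunits were called, and without PDGF-BB+PTUPB replicate 3 there were 4, with Cct7, while the count over all genes was 1002, 1109 and 1331. Cct4 lost its call also without PDGF-BB replicate 1 (edgeR adjusted p = 0.0636), without PDGF-BB replicate 3 (0.0698) and with a term for the replicate number (0.0653), in a range of 0.00878 to 0.126. The call for Cct3 was lost without any of the PDGF-BB+PTUPB libraries, and adjusted p ranged from 0.00314 to 0.0821 for Cct3 and from 0.00143 to 0.0695 for Cct7. Without PDGF-BB replicate 3, the highest library for 7 of the subunits, the median log2 change was -0.26.

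**Figure D2:**
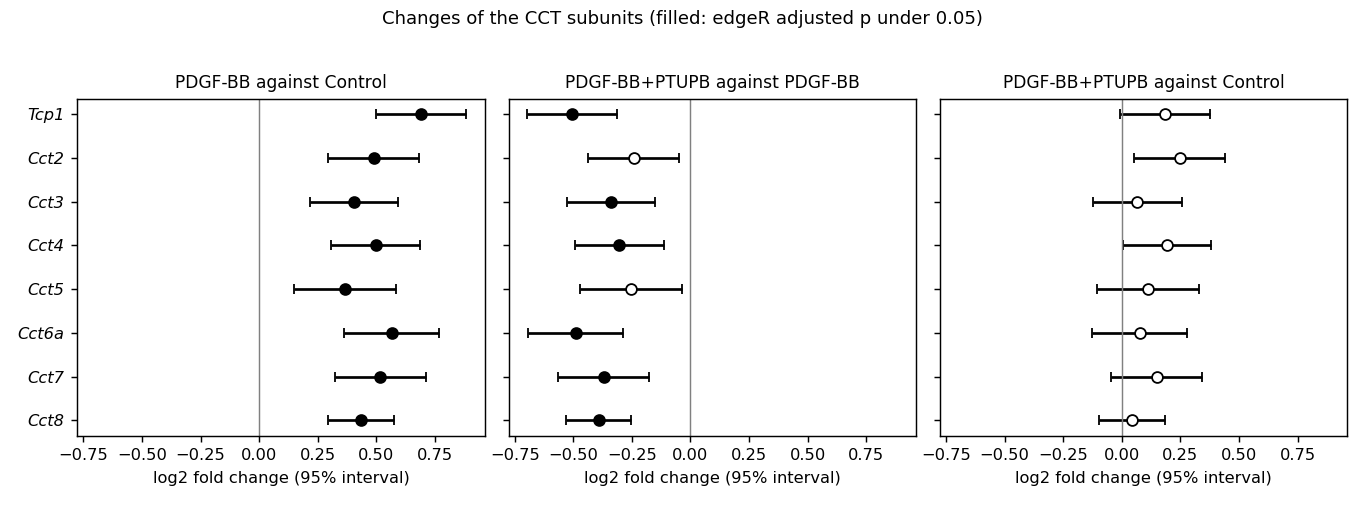
Log2 fold changes of the 8 subunits (horizontal axis) with 95% intervals, not adjusted for multiple tests, in the 3 comparisons; filled symbols had an edgeR adjusted p under 0.05. All 8 lie above 0 for PDGF-BB against Control, all 8 below 0 for PDGF-BB+PTUPB against PDGF-BB with Cct2 and Cct5 open, and all 8 are open for PDGF-BB+PTUPB against Control.

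PDGF-BB+PTUPB was also set against Control, to describe how far these cells differed from Control cells. No subunit passed the edgeR test, against 2.21% of all genes tested (1.89% higher and 0.313% lower). At the same time 2 subunits (Cct2 and Cct4) had an unadjusted p under 0.05, and DESeq2 and limma also called 0. All 8 estimates were above 0, with a median of 0.13 on the log2 scale against -0.01 for all genes. The largest was Cct2 at 0.25 (95% interval 0.05 to 0.44, edgeR adjusted p = 0.244) and the smallest Cct8 at 0.04 (95% interval -0.10 to 0.18, edgeR adjusted p = 0.822). The libraries of Tcp1, Cct2, Cct4 and Cct7 did not overlap between these groups, 4 of 8 subunits, against 21.5% of all genes. With both PDGF-BB replicate 3 and Control replicate 2 left out, Cct2 (0.28 ± 0.06, edgeR adjusted p = 0.0190) and Cct4 (0.25 ± 0.06, edgeR adjusted p = 0.0229) were called higher, and 1345 genes were called over the table in place of 247. Over the 21 alternatives, adjusted p ranged from 0.0190 to 0.497 for Cct2 and from 0.0229 to 0.715 for Cct4.

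For each subunit the position of the PDGF-BB+PTUPB mean between Control (0%) and PDGF-BB (100%) was taken on the FPKM scale. No group received PTUPB without PDGF-BB. A reversal of the PDGF-BB rise and an effect of PTUPB itself on the level therefore cannot be told apart. The position uses the same libraries as the comparisons above and is a description. No subunit passed the edgeR test between PDGF-BB+PTUPB and Control with all 9 libraries, so no position is shown to differ from 0%. The position was lowest for Cct8 at 8.79%, Cct6a at 11.1% and Cct3 at 14.5%. The ranges on leaving out any 1 library were 3.43% to 14.0%, 5.17% to 15.2% and 8.11% to 19.6%. Such ranges are not confidence intervals. Tcp1 stood at 22.3%, Cct7 at 25.1% and Cct5 at 28.1%, with ranges of 19.3% to 26.4%, 21.6% to 32.2% and 20.7% to 41.0%. Cct4 at 34.7% (30.2% to 42.6%) and Cct2 at 46.4% (37.7% to 59.1%) were highest. The sum of the 8 subunits stood at 27.0%. With both PDGF-BB replicate 3 and Control replicate 2 left out, Cct2 stood at 61.7%, Cct5 at 52.7% and Cct4 at 48.2%, and Cct8 at 3.27%.

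Whether the subunits moved in proportion was examined from the share of each in the summed FPKM of the 8. Mean shares differed between groups by at most 1.73 percentage points in any subunit. Tcp1 made up 9.59% ± 0.45 in PDGF-BB and 8.27% ± 0.38 in Control (SD, n = 3 each), and Cct5 22.1% ± 0.62 in PDGF-BB and 23.8% ± 1.32 in Control, both without overlap between the groups. The other 6 shares overlapped in this comparison and differed by 0.39 percentage points or less. With PTUPB, the share of Tcp1 was 8.51% ± 0.14 in PDGF-BB+PTUPB against 9.59% ± 0.45 in PDGF-BB, that of Cct6a 4.99% ± 0.16 against 5.57% ± 0.13, that of Cct5 23.3% ± 0.59 against 22.1% ± 0.62, and that of Cct2 16.8% ± 1.00 against 15.8% ± 0.22, again without overlap. Cct2 alone did not overlap between PDGF-BB+PTUPB (16.8% ± 1.00) and Control (15.7% ± 0.41). Single libraries moved some of these differences in mean share: the Cct2 difference of 1.03 percentage points for PDGF-BB+PTUPB against PDGF-BB was 0.469 without PDGF-BB+PTUPB replicate 1, and that of 1.16 against Control was 0.606 without the same library. The Cct5 difference of -1.73 for PDGF-BB against Control was -0.97 without Control replicate 2. For every share without overlap named here the exact two-sided permutation test gave p = 0.1, the smallest that 3 against 3 libraries allow, and an adjusted p of 0.343 over the 24 values compared, so no share passed and none could.

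**Figure D3:**
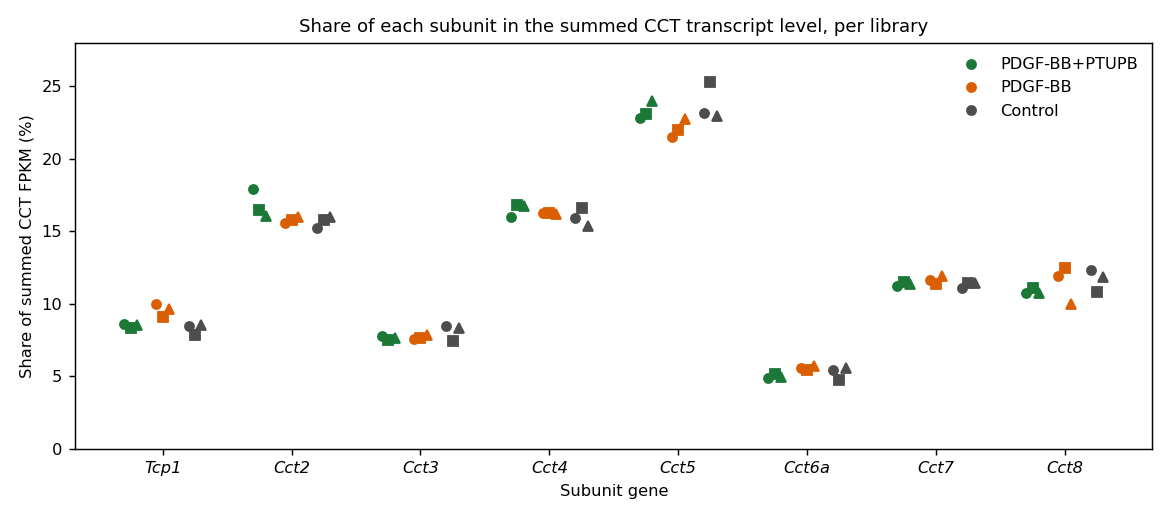
Share of each subunit (horizontal axis) in the summed TMM-scaled FPKM of the 8 CCT subunits (vertical axis, percent) in every library; colours are groups and symbols replicates 1, 2 and 3 (circle, square, triangle). Cct5 holds the highest share, 21.5% to 25.3% over the 9 libraries, and Cct6a the lowest; the groups differ by at most 1.73 percentage points in any subunit's mean share.

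The subunits were also alike over the 9 libraries when the 3 groups were pooled. Over the 9 libraries, the log2 level of each subunit correlated with the mean of the other 7 at Pearson's r of 0.877 (Cct8) to 0.991 (Cct7). The points fall in the 3 groups compared above, so these correlations include the differences between groups and carry no test. Within Control the subunits were less alike: replicate 2 was the highest Control library for 4 subunits and the lowest for 4. Cct3 and Cct6a were the closest pair (0.982), next to Cct4 and Cct7 (0.982), and Cct5 and Cct8 the least alike (0.733). Tested genes outside CCT were ranked by correlation with the mean of the 8, each subunit first scaled by its own mean and SD. Genes with clone or provisional symbols, such as those starting with LOC or RGD, were left out. The highest were Psmc5, a proteasome ATPase (0.998), Atp5f1d, an ATP synthase subunit (0.997), Mrpl17, a mitochondrial ribosomal protein (0.994), and the membrane protein gene Emp3 (0.994). Next came Atp5f1b, the catalytic ATP synthase subunit (0.994), Ppial4d (0.993), Got2, mitochondrial aspartate aminotransferase (0.993), and Mdh1, cytosolic malate dehydrogenase (0.993). Psmc5 averaged 67.7 FPKM in PDGF-BB+PTUPB, 90.8 FPKM in PDGF-BB and 60.5 FPKM in Control, with a log2 change of 0.58 ± 0.09 for PDGF-BB against Control. Ppial4d belongs to a family of near-identical copies, so its reads are uncertain.

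Genes that work with CCT were compared from lists that hold its co-chaperones, cofactors and clients. Prefoldin delivers unfolded actin and tubulin to CCT, and phosducin-like proteins bind the chaperonin while it folds. Of 13 co-chaperone genes 12 were tested, and 2 rose and 0 fell with PDGF-BB, against 17.3% of all genes higher and 15.8% lower, with a median log2 change of 0.13. That share is near the background. The genes that rose were the prefoldin subunits Pfdn4 (61.0 ± 6.40 FPKM in PDGF-BB, 41.0 ± 2.84 FPKM in Control, log2 change 0.57 ± 0.09, edgeR adjusted p = 0.00133) and Pfdn6 (0.44 ± 0.13, edgeR adjusted p = 0.0216). Both fell with PTUPB, Pfdn4 by 0.51 ± 0.09 (edgeR adjusted p = 0.00574) and Pfdn6 by 0.44 ± 0.13 (edgeR adjusted p = 0.0384) on the log2 scale, against 10% of all genes lower, and the other 10 did not pass. The PDGF-BB count was 1 without Control replicate 1 or PDGF-BB replicate 3, and the PTUPB count 1 without Control replicate 3, any PDGF-BB library or any PDGF-BB+PTUPB library. None passed between PDGF-BB+PTUPB and Control, and Pdcl2 had 0 counts in all libraries.

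The tubulin folding cofactors, which join alpha and beta tubulin after CCT releases them, had 1 of 6 called higher with PDGF-BB, against 17.3% of all genes, a share near the background. It was Tbca (223 ± 30.8 FPKM in PDGF-BB, 149 ± 26.5 FPKM in Control, 0.58 ± 0.13, edgeR adjusted p = 0.00782), and the count was 2 with library totals, with limma at either pseudocount and with the length correction, with or without the replicate term. With PTUPB none of the 6 passed, and Tbca was at -0.41 ± 0.13 (edgeR adjusted p = 0.0554); that count was 1 without Control replicate 2, and in 8 other alternatives. Among other chaperonins, the mitochondrial chaperonin gene Hspd1 rose with PDGF-BB (213 ± 7.54 FPKM in PDGF-BB, 136 ± 2.84 FPKM in Control, 0.65 ± 0.06, edgeR adjusted p = 6.33e-05) and fell with PTUPB (by 0.52 ± 0.06, edgeR adjusted p = 0.00106). It was the only one of 5 tested to pass in either comparison, against 17.3% of all genes higher with PDGF-BB and 10% lower with PTUPB. Without Control replicate 2 the count was 2 in each, and for PDGF-BB it was also 2 with DESeq2 and with limma at either pseudocount. Between PDGF-BB+PTUPB and Control no cofactor and no other chaperonin passed. Cct6b, a testis paralogue of Cct6a, had 16 counts in PDGF-BB+PTUPB, 2 in PDGF-BB and 8 in Control over the 3 libraries of each group and was not tested.

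Of 19 actin and tubulin genes 15 were tested, and 9 rose and 1 fell with PDGF-BB, against 17.3% of all genes higher and 15.8% lower, with a median log2 change of 0.91. The 9 that rose were all tubulins, among them Tuba1b (444 ± 44.5 FPKM in PDGF-BB, 111 ± 27.4 FPKM in Control, 1.99 ± 0.18, edgeR adjusted p = 3.78e-05), Tubb5 (1.30 ± 0.12), Tubg1 (0.79 ± 0.09) and Tubb4b (1.51 ± 0.19). The gene that fell was Acta2 (-0.53 ± 0.13, edgeR adjusted p = 0.00898), while the cytoplasmic actin genes Actb (-0.11 ± 0.14, edgeR adjusted p = 0.551) and Actg1 (0.19 ± 0.14, edgeR adjusted p = 0.326) did not pass. The tubulin genes Tubb3 (-0.11 ± 0.25, edgeR adjusted p = 0.769), Tuba8 (0.48 ± 0.28, edgeR adjusted p = 0.220) and Tuba1c (1.35 ± 0.52, edgeR adjusted p = 0.0724) did not pass either, and a difference between actins and tubulins was not tested. Actins and tubulins are families of similar sequence, so reads may be divided between their members. With PTUPB 9 fell and 0 rose, against 10% of all genes lower and 8.28% higher, including Tuba1b (by 1.10 ± 0.17, edgeR adjusted p = 0.00286) and Tubb5 (by 0.58 ± 0.12, edgeR adjusted p = 0.0104). That count was 5 without PDGF-BB replicate 1 or PDGF-BB+PTUPB replicate 2, and 4 without PDGF-BB+PTUPB replicate 1 or replicate 3.

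Of the 15 actin and tubulin genes tested, 3 tubulin genes were higher in PDGF-BB+PTUPB than in Control, against 1.89% of all genes: Tubb5 (549 ± 58.4 FPKM in PDGF-BB+PTUPB, 332 ± 50.7 FPKM in Control, 0.73 ± 0.12, edgeR adjusted p = 0.0139), Tubg1 (0.47 ± 0.09, edgeR adjusted p = 0.0212) and Tuba1b (0.89 ± 0.17, edgeR adjusted p = 0.0272). A difference between these genes and the CCT subunits was not tested. The count of tubulin and actin genes called here was 5 without Control replicate 1, and it was 0 without Control replicate 3 and without either replicate 2 or replicate 3 of PDGF-BB+PTUPB. Of 16 other reported clients 10 rose and 0 fell with PDGF-BB, against 17.3% of all genes higher and 15.8% lower (median 0.28; 6 without Control replicate 1 or 3). They included Cdc20 (37.9 ± 0.913 FPKM in PDGF-BB, 3.27 ± 0.628 FPKM in Control, 3.54 ± 0.17, edgeR adjusted p = 2.72e-06), the mitotic kinase gene Plk1 (3.26 ± 0.20), Fzr1, the Cdh1 activator of the anaphase-promoting complex (0.74 ± 0.10), and the cyclin E gene Ccne1 (0.62 ± 0.13). With PTUPB 6 of the 16 fell and 0 rose, against 10% of all genes lower and 8.28% higher (median -0.22; 2 without PDGF-BB+PTUPB replicate 1 or 3), Cdc20 by 1.41 ± 0.15 and Plk1 by 1.18 ± 0.17 on the log2 scale. Cdc20 (2.13 ± 0.16) and Plk1 (2.08 ± 0.19) were also the 2 of the 16 that were higher in PDGF-BB+PTUPB than in Control, against 1.89% of all genes.

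**Figure D4:**
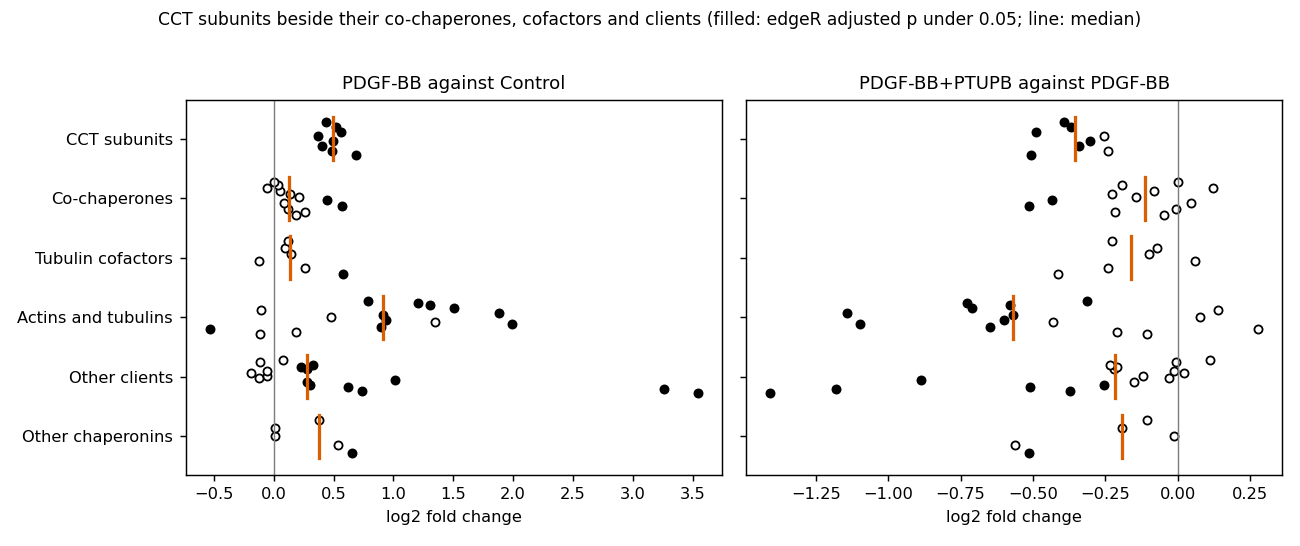
Log2 fold changes (horizontal axis) of the CCT subunits and of the listed co-chaperones, tubulin cofactors, actins and tubulins, other clients and other chaperonins; each point is a gene, filled where the edgeR adjusted p was under 0.05, and the line is the list's median. The 8 subunits lie between 0.37 and 0.69 for PDGF-BB and between -0.51 and -0.24 for PDGF-BB+PTUPB against PDGF-BB, while the co-chaperones have medians of 0.13 and -0.11 and the actins and tubulins 0.91 and -0.57.

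Transcription factors with reported links to CCT promoters, among them the heat shock factor genes Hsf1 and Hsf2, mostly did not pass. Of 5 tested, 1 fell with PDGF-BB, against 15.8% of all genes: Srf, the serum response factor (15.8 ± 1.77 FPKM in PDGF-BB, 19.3 ± 1.02 FPKM in Control, -0.29 ± 0.10, edgeR adjusted p = 0.0472). This call was lost in 16 of the 21 alternatives, including without Control replicate 1 or 3, PDGF-BB replicate 1 or 2, or PDGF-BB+PTUPB replicate 1 or 2. Hsf1 was at -0.0035 ± 0.10, Hsf2 at -0.03 ± 0.15 and Myc at 0.12 ± 0.13 on the log2 scale, and none passed. With PTUPB 0 of the 5 passed; the more abundant were Elk1 (0.15 ± 0.08, edgeR adjusted p = 0.261) and Myc (0.13 ± 0.13, edgeR adjusted p = 0.549). Between PDGF-BB+PTUPB and Control 0 of the 5 passed, or 1 without PDGF-BB replicate 3. Proliferation genes, like the subunits, read higher with PDGF-BB and lower with PTUPB. All 12 listed genes rose with PDGF-BB, against 17.3% of all genes (median log2 change 2.15), and 9 fell with PTUPB, against 10% of all genes (median -0.98), including the mitotic kinase gene Cdk1 (49.4 ± 6.59 FPKM in PDGF-BB+PTUPB, 98.1 ± 6.19 FPKM in PDGF-BB and 18.9 ± 2.61 FPKM in Control). Between PDGF-BB+PTUPB and Control 5 of the 12 were higher and 0 lower, against 1.89% of all genes higher, and the count was 8 without PDGF-BB replicate 3, with DESeq2 and with the length correction. Their median log2 change there was 1.35, beside 0.13 for the subunits, and this difference was not tested. The part of proliferation in the subunit changes was not tested.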

How the data were processed

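Poly(A) RNA of 9 samples was sequenced paired-end, per the labels. The submitters' processing notes name cutadapt 1.9.1, HISAT2 2.0.1 and HTSeq 0.6.1, and the mouse build mm10, although all 32623 identifiers are rat Ensembl identifiers; the file's coordinates were not used. The authors deposited expected counts per gene (978 genes with a value that is not whole) and FPKM, which differed from values recomputed from counts and exonic lengths by less than 0.006 for 100.0% of values. The strand used in counting is not given in the sources used here.

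Counts were rounded and tested with edgeR 4.0.16 in R 4.3.3 (TMM, quasi-likelihood F test, two-sided, group as the only term, all 9 libraries). A gene entered the test (11197 did) where 3 or more libraries had an FPKM of 1 or more, including all 8 subunits, and an adjusted p under 0.05 was called. DESeq2 1.42.0 and limma 3.58.1 were alternatives, with other scalings, filters, a length correction, a replicate block and libraries left out. The fits were also run on simulated counts with the same relative spread for every gene and no length trend. That run does not cover the differences between replicates seen here. Replicates differed beyond sampling noise (chi-square per degree of freedom 6.13 to 38.9). Subunits, lists and tests were chosen with earlier results of these data known. All subunits were named, and from each list the called genes with the smallest p (up to 4), else the 2 highest in level. Values of Actb, Actg1, Hsf1, Hsf2 and Acta2 were chosen after they were seen. Those of Tubb3, Tuba8 and Tuba1c, of Myc for PDGF-BB against Control, and of single cell type markers, also lie outside this rule. Promoter sequences are from RefSeq (GRCr8). Intervals cover the spread between libraries only.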

Additional observations from a re-analysis of the deposited data

How the results depend on the processing

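Each subunit's log2 change was recomputed under 21 alternatives in 3 comparisons (504 values), and 0 changed sign, 13 lost a call and 5 gained one. For PDGF-BB+PTUPB against PDGF-BB, leaving out 1 library gave 3 to 6 called subunits, a median log2 change of -0.40 to -0.26 and 1002 to 2463 called genes, and leaving out Control replicate 2 with PDGF-BB replicate 3 gave a median of -0.26 and 2818 called genes. For PDGF-BB+PTUPB against Control, the median was 0.16 with library totals, 0.14 with upper-quartile scaling, 0.16 with limma at either pseudocount, 0.10 to 0.18 without 1 library and 0.18 without those 2 libraries, which called 2 subunits and 1345 genes; DESeq2 called 441 genes, and leaving out 1 library gave 93 to 340. Cct2 passed for PTUPB against PDGF-BB with library totals (adjusted p = 0.0449) and with limma (0.0483 and 0.0498). The cause of these shifts was not tested. Same-numbered libraries did not deviate together (r from -0.24 to 0.18 over 9 pairs, and 1 of 9 libraries matched best with its own number in both other groups), so the replicate numbers are not taken as pairs; with the number as a block 8 subunits were called for PDGF-BB against Control, 5 for PDGF-BB+PTUPB against PDGF-BB and 0 for PDGF-BB+PTUPB against Control. No p-value below 0.1 is possible for the shares with 3 libraries a group.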
